A study of Mus musculus with 3 samples.

Results

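Hippo effectors and Piezo mechanosensors were examined as 10 genes, chosen by symbol, of the 27179 in the deposited count table, and all 10 were found by their NCBI gene IDs. They comprise Yap1 and Wwtr1 (the gene of TAZ), the transcriptional coactivators of the Hippo pathway, the 4 TEAD transcription factor genes Tead1 to Tead4, the matricellular protein genes Ccn1 (also Cyr61) and Ccn2 (also Ctgf), and the channel genes Piezo1 and Piezo2. The series holds 3 RNA-seq libraries and 1 group, sorted adipose stem and progenitor cells taken from epididymal fat of untreated wild-type males of strain C57B6, aged 12 weeks. The fat was dissociated with collagenase, and live cells were gated as positive for CD140a, Sca1 and podoplanin and negative for CD45, CD31 and Ter119. The series set out to characterise the transcriptome of adipose progenitors and its labels hold no second condition, so the comparisons are between genes within a library and between libraries. The study text names 3 mice but does not tie a mouse to a library. P-values here therefore take the library as the unit, and differences between libraries can include technical variation.

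In the Hippo pathway, a cascade of kinases ending in LATS phosphorylates YAP and TAZ and holds them in the cytoplasm. When the cascade is inactive, as on stiff matrix or under mechanical tension, YAP and TAZ enter the nucleus and bind TEAD proteins, which carry them to target genes such as Ccn1 and Ccn2. Piezo proteins are large cation channels opened by membrane stretch, and adipose progenitors are mechanically sensitive cells in which matrix stiffness and cell shape influence the choice of lineage. Transcript counts do not show where YAP and TAZ proteins are or whether they are phosphorylated.

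The libraries held 32813373, 25060096 and 27275888 counts. Levels are given as CPM, that is, counts relative to library size, scaled with the trimmed mean of M-values (TMM) method, and 3 counts, taken as the limit that a count of 0 allows, came to 0.0945 to 0.119 CPM, which covers counting error only. Genes of the selected surface proteins, Pdgfra, Ly6a and Pdpn, all reached at least 1 CPM throughout, and Pecam1, the gene of CD31, had 4 counts in all, while Ptprc, the gene of CD45, stood at 5.42, 15.8 and 7.68 CPM. Summed over 9 endothelial markers, a cell type known for Piezo1, the libraries reached 0.220 to 0.396 CPM with 0 of 9 at 1 CPM in every library and Esam at 0 counts. The summed markers of mural cells reached 11.0 to 24.9 CPM (1 of 8 detected, Des, with Rgs5 at 0), of macrophages 0.179 to 3.92 (0 of 8, with C1qb at 0), of mesothelium 2.54 to 20.6 (1 of 5, Nkain4), of Schwann cells 1.64 to 6.17 (1 of 4, S100b, with Sox10 at 0), of mature adipocytes 1.10 to 6.62 (0 of 5, with Adipoq and Cidec at 0), of lymphocytes 0.0396 to 7.32 (0 of 5, with Lck and Ms4a1 at 0) and of the erythroid lineage 0 to 2.14 (0 of 3, with Hba-a1 at 0). The lymphocyte sum in libraries 1 and 3 was almost all Cd3d, at 5.76 and 7.32 CPM, with 0 counts in library 2. Retn made up most of the mature adipocyte sum in library 2, at 6.50 CPM. In RNA pooled from sorted cells, fewer cells that use a gene and less of its RNA per cell cannot be told apart.

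Of the 10 genes, 8 were detected (none of the 3 libraries below 1 CPM), beside 35.0% of all genes in the table and 43.7% of the 20983 protein-coding genes. Tead4 and Piezo1 were the 2 that were not. At 5 CPM in every library 6 remained, as Tead2 and Tead3 also fell out. The genes and the lists below were chosen with earlier results of these data known. Their shares are therefore descriptions and do not show enrichment. Lists below are set beside the 35.0% of all genes, and protein-coding genes had the higher share of 43.7%.

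Promoter sequence bears on these genes because TEAD proteins bind the letters GGAATG, which on the opposite strand appear as CATTCC, and Ccn1 is a textbook target of YAP and TEAD. RefSeq windows of GRCm38.p6, the assembly behind mm10, were held for 6 of the 10 genes, as 9 start sites. None was held for Ccn2, Tead1, Tead4 or Piezo2. The 250 bases before the start were searched on both strands, and 12.6% of the 32851 windows of all genes held the letters. They were found in 6 of the 9 windows, those of Ccn1, Wwtr1 and Yap1 and some of Tead3, and in 0 windows of Tead2 and Piezo1. Of these windows 3 are shown, those of the gene with the highest level and of both coactivators, each from the minus strand, with the match in capitals and the Yap1 window shortened to the bases outside the annotated gene. Ccn1 at chr3:145649986-145650235, Wwtr1 at chr3:57575911-57576160 and Yap1 at chr9:8004639-8004846 read, 5′ to 3′:
Ccn1: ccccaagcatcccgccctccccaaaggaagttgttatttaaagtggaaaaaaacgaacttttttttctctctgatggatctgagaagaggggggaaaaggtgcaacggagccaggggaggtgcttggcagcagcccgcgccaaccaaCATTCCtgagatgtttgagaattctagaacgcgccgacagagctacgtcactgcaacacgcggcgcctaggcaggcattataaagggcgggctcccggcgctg
Wwtr1: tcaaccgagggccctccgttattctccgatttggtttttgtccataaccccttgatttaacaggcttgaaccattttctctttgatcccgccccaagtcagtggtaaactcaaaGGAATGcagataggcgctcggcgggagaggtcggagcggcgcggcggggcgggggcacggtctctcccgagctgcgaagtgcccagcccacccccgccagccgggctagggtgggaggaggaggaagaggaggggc
Yap1: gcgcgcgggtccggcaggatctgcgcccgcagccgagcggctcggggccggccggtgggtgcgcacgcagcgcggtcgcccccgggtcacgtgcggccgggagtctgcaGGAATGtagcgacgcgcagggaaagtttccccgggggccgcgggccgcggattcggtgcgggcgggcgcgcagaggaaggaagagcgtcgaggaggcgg
Counted from the start, with -1 as the base just before it, the match began at -103 in Ccn1, -136 in Wwtr1 and -141 in Yap1. For Yap1 the start used lies inside the annotated gene, so its position also counts bases left out of the sequence shown. A second Wwtr1 window, from a start further inside the gene, holds the same match. Of 3 Tead3 windows, one held 1 match at -182 and another held 2, at -123 and -114. The letters TATAAA, searched on the strand of the gene alone, stood once in the Ccn1 window and once in that of Piezo1, beside 7.59% of all windows. The serum response element known as the CArG box (1.47% of all windows) and the letters TGANTCA, read by AP-1 (6.75%), were in 0 of the 9 windows. A match is a string of letters and not a measured binding site.

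Between the coactivators, Wwtr1 was the more abundant in every library. Wwtr1 (gene 97064, chromosome 3, 57455644 to 57575910) stood at 256, 194 and 253 CPM, a mean of 234 ± 35.0 (SD, n = 3). The second library was the lowest and the other two lay within a few CPM of each other. Yap1 (gene 22601, chromosome 9, 7931999 to 8004638) stood at 40.8, 49.4 and 68.4 CPM, 52.9 ± 14.1 on average, with library 3 highest. Levels of different genes were compared per kilobase of annotated exon, since longer transcripts give more reads, and on that scale Wwtr1 stood at 53.6, 40.6 and 52.9 CPM per kilobase and Yap1 at 4.41, 5.33 and 7.38, ranges that did not overlap. Wwtr1 exceeded Yap1 by 12.2-fold, 7.61-fold and 7.17-fold, and made up 92.4%, 88.4% and 87.8% of the summed level of both. The log2 difference, Yap1 minus Wwtr1, was -3.10 ± 0.41 and negative in each library (p = 0.25 by a two-sided exact sign-flip permutation test, adjusted p = 0.33 over 8 pairs). With 3 libraries no such test can go below 0.25, so none of the 8 pairs tested here could pass 0.05. The size depends on the transcript model, with -2.33 when the longest transcript sets the length and -2.17 in CPM alone.

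**Figure D1:**
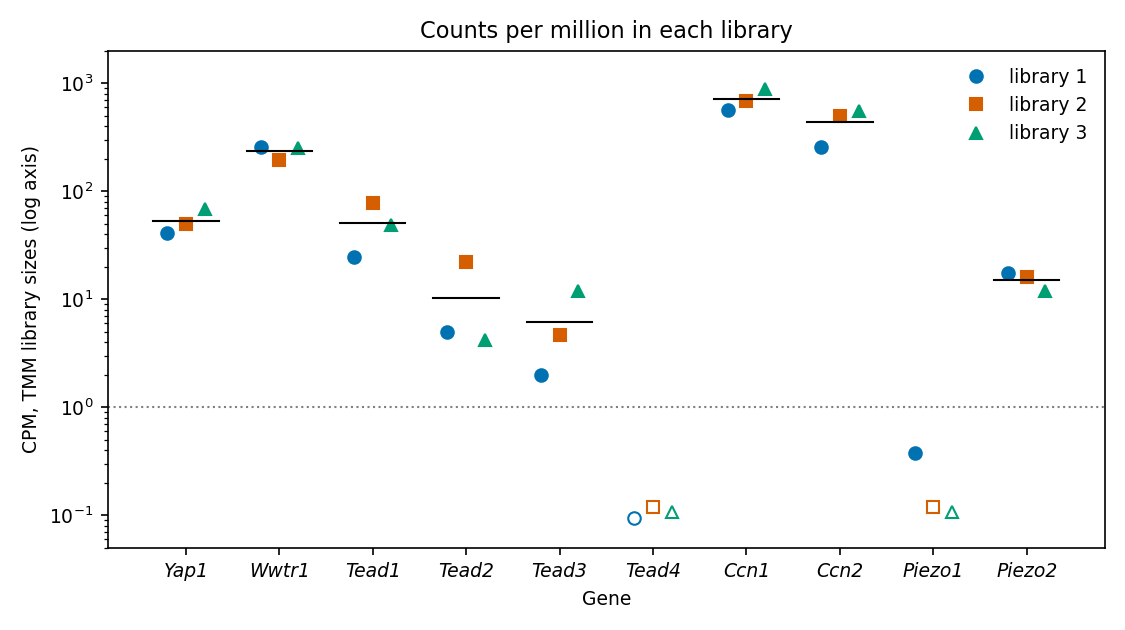
Level of each of the 10 genes in CPM on a log axis, with 1 point per library, the mean of 3 libraries as a bar for the 8 detected genes and the detection threshold of 1 CPM as a dotted line. Open symbols stand for fewer than 3 counts and are drawn at the limit of 3 counts, where Tead4 lies in every library and Piezo1 in libraries 2 and 3.

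Of the TEAD factors, the DNA-binding partners of YAP and TAZ, Tead1 was the highest in every library and Tead4 was nearly without counts. Tead1 (gene 21676, chromosome 7, 112679356 to 112906784) stood at 24.4, 78.4 and 48.6 CPM, 50.5 ± 27.0 on average, with library 2 at 3.21 times library 1. Tead2 (gene 21677, chromosome 7, 45215792 to 45233468) stood at 5.01, 21.9 and 4.18 CPM, so that library 2 lay well above the other two and carried the mean of 10.4 ± 10.01, which was 4.59 without replicate 2. Tead3 (gene 21678, chromosome 17, 28331671 to 28350805) stood at 1.98, 4.68 and 11.9 CPM, 6.17 ± 5.10 on average, with library 3 highest and a mean of 3.33 without replicate 3. Tead4 (gene 21679, chromosome 6, 128227143 to 128300813) had 0, 0 and 1 counts, all below the limit of 3 counts.

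Per kilobase of exon, Tead1 made up 57.3%, 52.3% and 57.5% of the summed TEAD level. Its share varied by 2.95 percentage points (SD), while those of Tead2, at 33.3%, 41.4% and 14.0%, and Tead3, at 9.40%, 6.30% and 28.3%, changed places between libraries. Tead1 exceeded Tead2 by 0.99 ± 0.83 on the log2 scale and Tead3 by 2.04 ± 0.97, positive in each library (p = 0.25 and adjusted p = 0.33 for both, exact sign-flip permutation test). The first of these was 0.53 without replicate 3 and 2.54 in CPM without the length. Tead2 was above Tead3 in libraries 1 and 2 and below it in library 3, a difference of 1.05 ± 1.80 (exact sign-flip permutation test, p = 0.50, adjusted p = 0.50), and this was 0.30 without replicate 2 and 2.04 without replicate 3. Against the limit of 3 counts, Tead1 was at least 68.6-fold higher than Tead4 per kilobase in library 1 and at least 175-fold higher in library 2. In library 3 the ratio was 361, with an exact 95% counting interval of 64.7 to 14264.

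The summed TEAD level, 3.14, 11.1 and 6.23 CPM per kilobase, was below the summed level of the coactivators, 58.0, 45.9 and 60.3, in every library. Yap1 taken alone was above Tead1 per kilobase in libraries 1 and 3 and below it in library 2, by 0.72 ± 0.73 on the log2 scale (exact sign-flip permutation test, p = 0.50, adjusted p = 0.50 over 8 pairs), or 0.45 without replicate 1, 1.13 without replicate 2 and 0.19 in CPM alone. When the longest transcript set the length, Yap1 was above Tead1 in every library, by 1.08 ± 0.73 (p = 0.25 by the same exact permutation test).

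The secreted targets were the most abundant of the 10 genes. Ccn1 (gene 16007, chromosome 3, 145646971 to 145649985), which encodes a matrix protein that binds integrins, stood at 561, 692 and 880 CPM, 711 ± 160 on average. Ccn2 (gene 14219, chromosome 10, 24595442 to 24598683), a matrix protein linked to fibrosis and a partner of TGF-beta signalling, stood at 259, 502 and 552 CPM, 438 ± 157 on average. Both were lowest in library 1 and highest in library 3, and for Ccn2 library 1 lay apart from the other two. Per kilobase Ccn1 was above 99.3% and Ccn2 above 98.5% of the 21548 genes with a length, detected or not. The per-kilobase level of Ccn1 exceeded that of Ccn2 by 3.07-fold, 1.95-fold and 2.26-fold, or 1.25 ± 0.33 on the log2 scale (exact sign-flip permutation test, p = 0.25, adjusted p = 0.33 over 8 pairs), and by 0.75 in CPM without the length.

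Other CCN genes gave 1 further abundant transcript. Ccn3 (also Nov), whose protein has a structure like those of Ccn1 and Ccn2, stood at 271, 340 and 392 CPM, and Ccn5 at 10.4, 14.7 and 12.5. Ccn4 had 5 counts in all and Ccn6 had 0. Of the summed CCN level per kilobase, Ccn1 made up 59.3%, 53.2% and 56.5%, Ccn2 19.3%, 27.2% and 24.98%, and Ccn3 20.2%, 18.4% and 17.7%. The shares of Ccn2 and Ccn3 were thus close in library 1 and further apart in the other two.

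Ccn1 and Ccn2 are also immediate-early genes, which cells switch on within minutes of serum, stretch or handling, and all levels here follow enzymatic digestion and sorting. Of 16 immediate-early genes, 14 were detected (87.5%, beside 35.0% of all genes), with a median of 253 CPM. The highest per kilobase were Fos at 6574 ± 557 CPM, Egr1 at 2953 ± 200, Jun at 1031 ± 84.1 and Zfp36 at 1078 ± 79.4. Fosl1 had 0 counts and Egr3 had 1. Their summed level, 13791, 15085 and 15725 CPM, was lowest in library 1 and highest in library 3, as were Ccn1 and Ccn2. Of the 14 detected genes 5 had that order (Egr1, Jun, Ier2, Fosb and Jund), beside 17.3% of all detected genes. The other 9 did not, among them Fos, the largest term of the sum, at 5932, 6908 and 6884 CPM. The part of this response in the levels of Ccn1 and Ccn2 was not tested. Undigested tissue was not analysed here.

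Among the Piezo channels, Piezo2 was present at a low level and Piezo1 was close to 0. Piezo2 (gene 667742, chromosome 18, 63010213 to 63387716), known as the touch and proprioception channel of sensory neurons, had 552, 405 and 333 counts, or 17.4, 16.05 and 11.9 CPM, with a mean of 15.1 ± 2.87. Its libraries lay closer together than those of any TEAD gene detected. Piezo1 (gene 234839, chromosome 8, 122481698 to 122551329), the channel of endothelium, red cells and many other tissues, had 12 counts in library 1, or 0.378 CPM, and 0 in the other two, below 0.119 CPM in library 2 and 0.107 in library 3 at 3 counts. Per kilobase, Piezo2 exceeded Piezo1 by 26.6-fold in library 1 (exact 95% counting interval 15.1 to 51.9), and by at least 78.2-fold and 64.3-fold in libraries 2 and 3 against 3 counts. Over the 3 libraries Piezo2 had 1290 counts and Piezo1 12. The 3′ end of Piezo1 overlaps Ctu2 over 1395 bases (and the small RNA gene Gm26497 over 107), and Ctu2 had 31, 303 and 505 counts. The annotated span of Piezo2 overlaps that of the noncoding gene Gm36651 over 14605 bases, Wwtr1 the pseudogene Gm16016 over 2520 and Ccn2 the noncoding gene Gm15270 over 362. How reads that touch 2 genes were counted is not given in the sources used here, and the part of these overlaps in the counts, and in the ratio of Piezo2 to Piezo1, was not tested.

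Mdfic, whose protein binds Piezo channels as an auxiliary subunit, stood at 72.1 ± 10.8 CPM, while its relative Mdfi had 3 counts in all. Of 18 other channel genes linked to stretch, pressure or swelling, 6 were detected (33.3%, beside 35.0% of all genes and 43.7% of protein-coding genes). The median of the 18 was 1.64 CPM. Pkd2 (468 ± 95.4 CPM), the swelling-activated channel subunit gene Lrrc8a (88.6 ± 22.2), Trpm7 (198 ± 43.5) and Tmem63a (77.6 ± 5.63), a stretch-gated channel, were the highest per kilobase, and each had a higher mean per kilobase, from 17.3 to 46.1, than Piezo2. Trpc6 and Kcnk4 had 0 counts, and Tmc1, Tmc2, Tmem63c, Kcnk10 and Tmem150c had fewer than 10 counts in all.

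**Figure D2:**
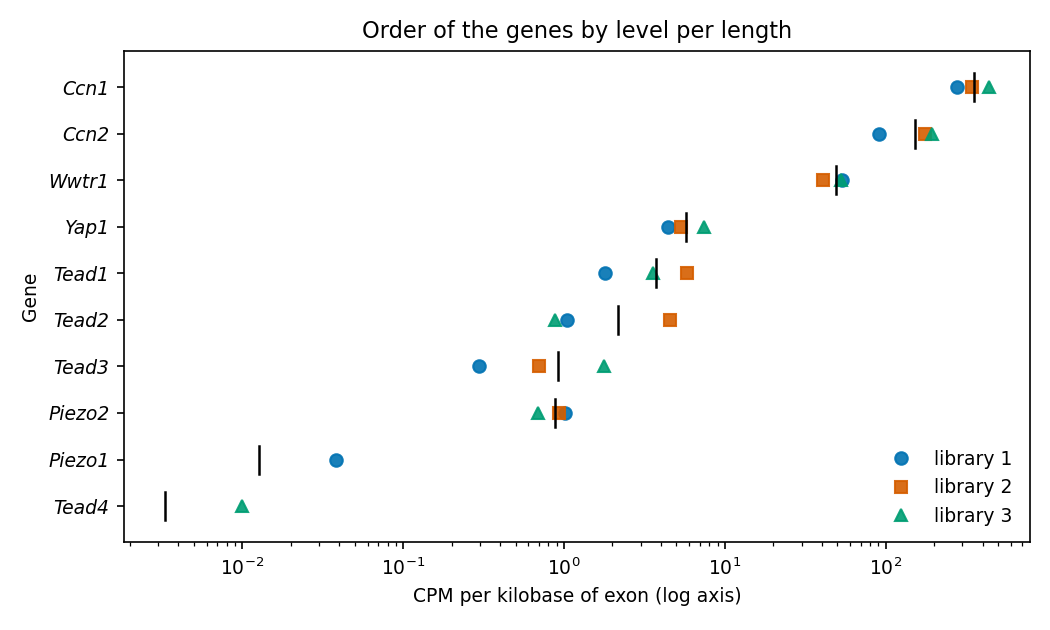
Level of each gene in CPM per kilobase of exon on a log axis, ordered by the mean, with 1 point per library and the mean of 3 as a tick. Libraries at 0 counts have no point, which leaves 1 point each for Piezo1 and Tead4, and the points of Yap1, Tead1, Tead2, Tead3 and Piezo2 overlap between neighbours.

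Ordered by mean level per kilobase, the genes ran from Ccn1 (352 ± 79.5) through Ccn2 (153 ± 54.7), Wwtr1 (49.0 ± 7.32), Yap1 (5.71 ± 1.52), Tead1 (3.72 ± 1.99), Tead2 (2.17 ± 2.09), Tead3 (0.919 ± 0.760) and Piezo2 (0.880 ± 0.167) to Piezo1 and Tead4. Ccn1, Ccn2, Wwtr1 and Yap1 were apart from each neighbour above or below within this group, with ranges over libraries that did not overlap. From Yap1 down to Piezo2 each gene overlapped the next. Tead3 was above Piezo2 in library 3 only (1.77 against 0.693) and below it in libraries 1 and 2. Piezo2 and Piezo1 did not overlap, and Piezo1 and Tead4 did. By rank, Wwtr1 was above 95.5% of genes with a length, Yap1 above 76.7%, Tead1 above 70.9% and Piezo2 above 55.4%. Genes that were not detected are counted in these ranks.

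The genes differed in how much they varied between libraries. The coefficient of variation (SD over mean) was 14.9% for Wwtr1, 19.0% for Piezo2, 22.6% for Ccn1, 26.7% for Yap1, 35.8% for Ccn2, 53.6% for Tead1, 82.7% for Tead3 and 96.5% for Tead2, beside a median of 33.2% over the 9515 genes detected. The median fell with level, from 52.2% at 1 to 10 CPM and 35.5% at 10 to 100 CPM to 18.6% at 100 to 1000 CPM. Against genes of their own level, Wwtr1, Piezo2 and Yap1 were below the median, and Ccn1, Ccn2, Tead1, Tead2 and Tead3 were above it. Counting error alone would give 0.757% for Ccn1 up to 12.6% for Tead3 at the smallest count of each gene. The highest library was 2 times the lowest or more for 4 of 8, Tead1, Tead2, Tead3 and Ccn2, which is close to the 46.7% of all detected genes. Yap1, Tead3, Ccn1 and Ccn2, 4 of 8, were lowest in library 1 and highest in library 3, a pattern of 17.3% of all detected genes.

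**Figure D3:**
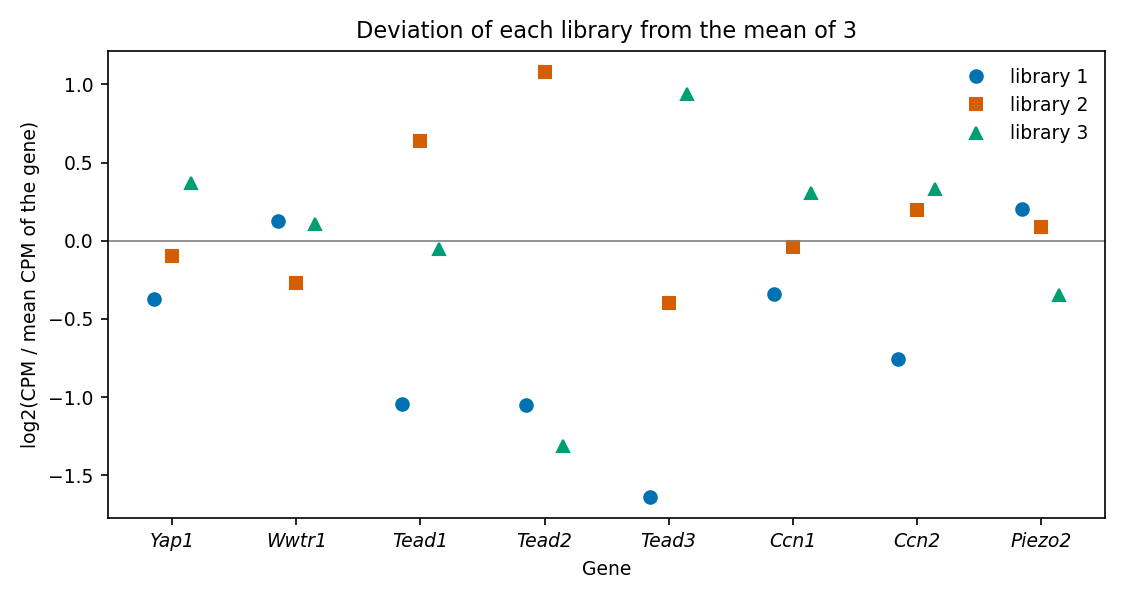
Log2 ratio of the CPM in each library to the mean CPM of the gene, for the 8 detected genes, with 1 point per library. Tead1, Tead2 and Tead3 show the widest spread, with library 2 highest for Tead1 and Tead2 and library 3 highest for Tead3, while Wwtr1, Piezo2, Ccn1 and Yap1 lie closer to 0.

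In a test of each library against the other 2 over 13289 genes, 9 of the 10 genes could be tested, Tead4 having too few counts. With edgeR's quasi-likelihood test 0 of the 9 passed an adjusted p of 0.05 in any library, beside 0.0% of all genes, and 502, 649 and 696 genes had an unadjusted p under 0.05 in libraries 1, 2 and 3. Among the 9 genes there was 1 such value, that of Ccn2 in library 1, whose log2 difference from the other 2 was -1.01 (edgeR adjusted p = 0.995). A lone library has no spread of its own, so the absence of calls does not show that the libraries were alike. DESeq2 called 1.12%, 1.66% and 1.61% of the genes to which it gave an adjusted p. Among them was Ccn2 in library 1 (log2 difference -1.02, DESeq2 adjusted p = 0.040), 1 of 24 pairs of gene and library, since Piezo1 was given no adjusted p. The differences of Tead1 in library 1, -1.36, and of Tead2 in library 2, 2.24, did not pass (edgeR adjusted p = 0.995 and 0.98, DESeq2 adjusted p = 0.51 and 0.62).

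Upstream of YAP and TAZ, 11 of 15 kinase-cassette genes were detected (73.3%, beside 35.0% of all genes), with a median of 31.1 CPM. Frmd6, the gene of a FERM protein upstream of the cascade, led per kilobase at 205 ± 62.6 CPM, followed by the kinase gene Lats1 at 123 ± 30.9, the scaffold gene Sav1 at 85.9 ± 33.6 and the kinase gene Taok1 at 141 ± 31.9. Of the kinases that phosphorylate LATS, Stk3 (MST2) stood at 71.3, 66.4 and 52.7 CPM, and Stk4 (MST1) at 41.6, 2.62 and 17.3, with library 2 far below the others. Of the LATS coactivator genes, Mob1a had 6, 161 and 1 counts and Mob1b 244, 0 and 456, so each library held reads of at least one, and library 2, without Mob1b, had the most of Mob1a. Wwc1 (KIBRA) had 3 counts in all. Stk3, Stk4, Mob1a and Mob1b are named here after their values were seen. Against the remaining libraries, the DESeq2 log2 difference in library 2 was -10.7 for Mob1b and -3.50 for Stk4. In library 3 it was -3.22 for Egr2, -11.0 for Nt5e and -8.47 for Trpc1. The values of Mob1b and Nt5e rest on 0 counts in the library named. DESeq2 calls picked these genes out of all pathway lists, so they do not describe the lists, and a lone library has no spread of its own.

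Of 13 genes whose proteins bind or restrain YAP, TAZ or TEAD, 11 were detected (84.6%, beside 35.0% of all genes). Their median was 29.2 CPM. The angiomotin-like genes Amotl2 (429 ± 80.8 CPM) and Amotl1 (264 ± 60.7), whose proteins retain YAP at junctions and are in part its targets, were the highest per kilobase, followed by the TEAD cofactor gene Vgll3 (157 ± 28.0) and Fbxw11 (86.9 ± 15.98), a subunit of a ubiquitin ligase. Among the vestigial-like genes, Vgll3 led, Vgll4, which competes with YAP for TEAD, stood at 3.35 ± 1.03 CPM, Vgll2 had 1 count and Vgll1 had 0. Per kilobase the mean of Vgll3 was 22.1 ± 3.94, against 3.72 ± 1.99 for Tead1, the highest TEAD gene.

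Of 20 genes of a target signature of YAP and TEAD published for cancers, without Ccn1 and Ccn2, 16 were detected. This was 80.0%, beside 35.0% of all genes, and the median of the 20 was 31.2 CPM. Axl, a receptor tyrosine kinase gene, reached 1443 ± 200 CPM, the tissue factor gene F3 553 ± 75.4, the matrix gene Ccdc80 906 ± 166 and Amotl2 429 ± 80.8. The stretch-induced gene Ankrd1, often read beside Ccn1 and Ccn2, had 7, 0 and 0 counts. Per kilobase Axl stood at 257, 272 and 332, below Ccn1 (278, 343 and 436) in each library, though the ranges over libraries overlapped. All 3 genes of the parallel actin-sensing pathway were detected, beside 35.0% of all genes. Srf, the serum response factor gene, stood at 18.9, 23.8 and 38.6 CPM. Its cofactor gene Mrtfb stood at 23.3, 27.5 and 33.8, and Mrtfa at 2.05, 2.97 and 5.14. Each was lowest in library 1 and highest in library 3, an order of 17.3% of all detected genes. Among detected genes, 2 of 16 in the target signature, 1 of 11 partners and 2 of 11 in the kinase cassette had it. So did 1 of 6 other channels and 1 of 2 other CCN genes.

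**Figure D4:**
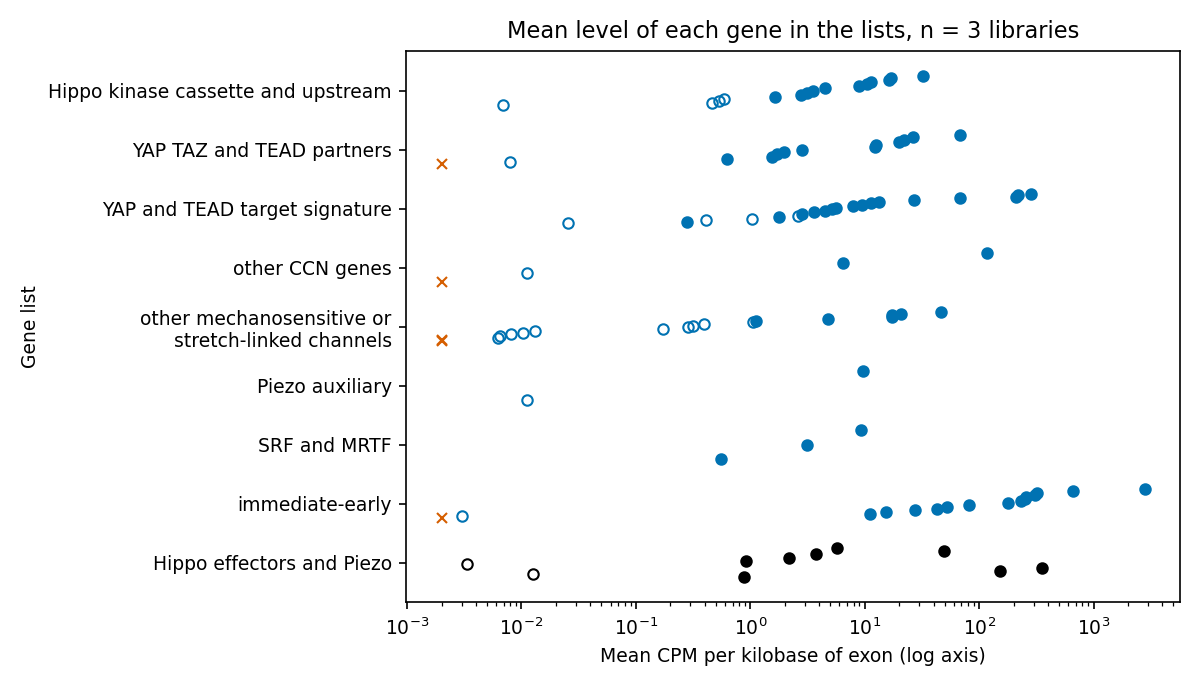
Mean level over 3 libraries of every gene of the pathway lists, in CPM per kilobase of exon on a log axis, with filled points for detected genes, open points for others and crosses at the left edge for genes at 0 counts. The 10 Hippo effector and Piezo genes are in black in the lowest row, where 3 lie to the right of every kinase-cassette gene and 2 lie near 0.

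By the distance between log2 values over the 3 libraries, the coding genes with the most similar level and spread were Dync1li2, Supt4a and Lrp10 for Yap1 (distances 0.07, 0.10 and 0.11), Timm8b, Sdhaf4 and Cep20 for Wwtr1 (0.10, 0.11 and 0.12), and Nptn, Txnip and Medag for Ccn1 (0.21, 0.25 and 0.26). The counts of Piezo1, 12 in library 1 and 0 elsewhere, were shared by 6 coding genes, among them Acat3, Pcdhgb5 and Clcf1. These distances rest on 3 libraries and describe level more than pattern.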

How the data were processed

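Total RNA of 3 sorted-cell libraries was amplified as full-length cDNA using a Clontech SMARTer kit (version V4), per the labels' protocols. Tools listed in the submitters' processing notes are STAR 2.3.0 and CASAVA 1.8.2, with build mm10. The tool that counted reads is not given in the sources used here, nor its annotation or strand rule. The authors deposited raw whole-number counts for each NCBI gene ID. Without strand, reads of overlapping genes cannot be told apart. RefSeq (GRCm38.p6) gave names to 25275 of 27179 IDs, and GENCODE M21 exon unions gave lengths to 21548. These counts were scaled to CPM by TMM factors in edgeR 4.0.16 (R 4.3.3). Pair differences used log2(CPM per kilobase + 0.1), which understates those of low genes, and the likeness of genes log2(CPM + 0.5). Each library was compared with the remaining 2 by edgeR's quasi-likelihood test (10 counts or more in at least 1 library, Benjamini-Hochberg over all genes tested), on the assumption that a single library varies like the rest. DESeq2 1.42.0 was an alternative. The test was first checked on simulated data, where it missed many of the changes put into library 1 and also called some unchanged genes. The labels mention no molecular identifiers, so intervals cover counting error only. The genes and lists were chosen with earlier results of these data known. Named genes were the 10, the 4 highest per kilobase of each list and genes of each list with fewer than 10 counts in all, plus the 3 nearest in level to Yap1, Wwtr1, Piezo1 and Ccn1. Genes named beyond that rule were chosen after their values were seen. Other software was pandas 2.3.3, scipy 1.17.1 and numpy 2.4.6 under Python 3.11.15.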

Additional observations from a re-analysis of the deposited data

How the results depend on the processing

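No paired comparison of groups was possible because the labels give 1 group, and pairing was only of genes within a library. Of 160 values recomputed under other settings, 153 were graded as unchanged. Levels and pair differences among them kept their direction or moved by less than the spread between libraries. Numbers of detected genes were graded with them but have no such spread. The number of all genes detected fell from 9515 to 7703 at 5 CPM. The other 7 were counts of genes that differed in 1 library from the other 2, which were 0 for each library with edgeR's quasi-likelihood test. DESeq2 gave 126, 199 and 197 genes for libraries 1, 2 and 3, and 1 of the 8 genes here with a DESeq2 adjusted p, Ccn2, in library 1. With no filter beyond 1 count in all, edgeR gave 16, 16 and 36 genes, none of them among the 10. The cause was not tested. The number of the 10 genes detected was 8 under 0.5 CPM, other size factors and without each replicate in turn, and 6 at 5 CPM. All 8 pair differences kept their sign, but those with Tead4 or Piezo1 depend on the pseudocount (5.06, or 8.06 and 2.14 with 0.01 and 1, for Tead1 minus Tead4; -3.12, or -5.70 and -0.89, for Piezo1 minus Piezo2), so folds against the 3-count limit are given for them. Depth limits statements on Tead4 and Piezo1 to levels above about 3 counts.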
